A study of Mus musculus with 9 samples.

Results

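The epidermal growth factor (EGF) family was followed in the colon of irradiated mice through 10 genes, 7 for ligands (Areg, Ereg, Hbegf, Tgfa, Egf, Btc and Epgn) and 3 for receptors (Egfr, Erbb2 and Erbb3). The members were taken by gene symbol, and each of the 10 symbols matched 1 of the 33539 genes in the count table. The animals were wild-type male C57BL/6 mice, 3 per group, and colon tissue was taken at 84 h. Con mice had vehicle and no irradiation, the IR group had 13 Gy, and the IR+CF-2 group had 13 Gy plus 4 intraperitoneal doses of 7.5 mg/kg CF-2, given 1 h before and 24, 48 and 72 h after irradiation. CF-2 is a compound known by its code name alone, and there was no group with CF-2 and without irradiation. The labels differ on the age (8 or 6 weeks), on whether the abdomen or the total body was irradiated, and on the vehicle (saline or PBS). Libraries keep the numbers of their labels, which are 2 to 4 in Con and IR and 1 to 3 in IR+CF-2.

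EGF family ligands are made as membrane-anchored precursors and are released at the cell surface by metalloproteases such as ADAM17. A released ligand joins receptors into pairs, whose kinase domains then signal through RAS and ERK and through PI3K, and ERBB2 has no known ligand of its own while the kinase of ERBB3 is weak, so that both work in pairs with other receptors. In the intestine EGF receptor signalling is known for sustaining the division of crypt cells, and amphiregulin and epiregulin are known for their part in regrowth after injury.

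Every ligand of the family carries an EGF domain, a short stretch held by 3 disulphide bonds between 6 cysteines, which binds the receptor. These stretches show what the ligands have in common and how far they differ, and those of 6 ligands, all but Hbegf, are printed below as coding sequence from the GENCODE M21 transcripts on GRCm38, 5′ to 3′, with the 6 cysteine codons in capitals.
Areg: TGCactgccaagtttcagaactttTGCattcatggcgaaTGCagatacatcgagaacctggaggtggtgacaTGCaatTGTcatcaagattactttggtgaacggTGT
Ereg: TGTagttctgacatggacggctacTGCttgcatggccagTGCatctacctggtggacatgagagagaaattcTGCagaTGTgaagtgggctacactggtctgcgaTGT
Btc: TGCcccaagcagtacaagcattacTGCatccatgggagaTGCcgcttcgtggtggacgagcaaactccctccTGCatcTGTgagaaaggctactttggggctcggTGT
Epgn: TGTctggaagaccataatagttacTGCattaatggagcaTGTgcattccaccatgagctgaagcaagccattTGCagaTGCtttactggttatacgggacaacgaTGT
Tgfa: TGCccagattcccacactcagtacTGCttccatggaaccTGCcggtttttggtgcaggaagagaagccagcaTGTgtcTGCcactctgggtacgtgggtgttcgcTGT
Egf: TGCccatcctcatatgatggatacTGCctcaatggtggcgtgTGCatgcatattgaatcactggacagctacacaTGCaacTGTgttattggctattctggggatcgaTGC
The cysteine spacing was 7, 4, 10, 1 and 8 codons in Areg, Ereg, Hbegf, Tgfa, Btc and Epgn and 7, 5, 10, 1 and 8 in Egf. The Egf precursor contains several EGF-like repeats, and the stretch shown, codons 982 to 1018 of 1217, was the only match to this spacing in its coding sequence. Among the 5 printed stretches of 108 bases (all but Egf), identity was highest between Tgfa and Btc (62.0%) and lowest between Ereg and Tgfa (45.4%), and it was 53.7% between Areg and Ereg. Because capitals mark shared codons, identities include the positions that the domain itself fixes.

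A group of 4 ligand genes lies side by side. Epgn (chr5:91027464-91035215, + strand), Ereg (chr5:91074622-91093646, +), Areg (chr5:91139599-91148432, +) and Btc (chr5:91357261-91402994, − strand) were the only 4 protein-coding genes in a stretch of 375.5 kb on chromosome 5 of GRCm38. Tgfa lies on chromosome 6, Egf on chromosome 3, Hbegf on chromosome 18, Egfr and Erbb2 on chromosome 11 and Erbb3 on chromosome 10. The labels do not state strandedness, so reads of overlapping genes on opposite strands cannot be told apart. This touches Ereg, whose antisense neighbour Gm19610 had 22 to 134 counts per library against 229 to 8041 for Ereg, and Erbb2, whose end overlaps Mien1 with 381 to 527 counts.

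Library totals were 34.4 to 44.3 M counts, and 19174 genes, all 10 members among them, passed the filter on low counts. Principal components of all tested genes placed IR 4 closest to the Con libraries of the 6 irradiated ones on the first component (−19.7, with Con from −54.3 to −46.6 and the rest at or above 19.2) and IR+CF-2 2 apart on the second (78.0, with the next highest at 22.9). The counts of genes past the test are also given without these libraries, and the sums, shares and correlations include them. Epithelial markers summed to 11328 to 15397 CPM (counts scaled to library size) in all libraries, the level of a tissue rich in epithelium.

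Before any comparison of groups, the order of the members was read from FPKM, which divides counts by gene length. In Con the receptors Erbb3 (95.4 FPKM) and Erbb2 (51.3) stood highest, followed by Areg (10.8), Tgfa (8.22), Hbegf (5.65), Egfr (4.27), Btc (2.42), Ereg (2.34), Egf (0.485) and Epgn (0.0999). In that order the ranges of FPKM over the 3 libraries overlapped between Areg and Tgfa, between Hbegf and Egfr and between Btc and Ereg, and the other neighbours were separate. In IR+CF-2 the order by mean FPKM began with Areg (84.3), Erbb3 (38.0), Ereg (27.5) and Erbb2 (23.7), whose ranges overlapped between neighbours, and ended with Epgn (0.280) and Egf (0.179). In IR the first were Erbb3 (73.5), Areg (56.0) and Erbb2 (37.5), also with overlapping ranges.

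Areg, which codes for amphiregulin, was the ligand gene with the highest FPKM in each group, and its level was higher in irradiated colon. In CPM scaled by the trimmed mean of M values (TMM), Areg measured 8.58, 20.7 and 11.8 in Con 2, 3 and 4, 64.4, 114 and 28.2 in IR 2, 3 and 4, and 136, 56.3 and 102 in IR+CF-2 1, 2 and 3. All 6 irradiated mice stood above the highest Con mouse, with IR 4 the lowest of them, and the IR and IR+CF-2 groups overlapped. Mean Areg was 13.7 ± 6.28 CPM in the Con group, 68.8 ± 43.0 CPM after 13 Gy alone and 98.1 ± 40.1 CPM with CF-2 added (SD, n = 3 each). Areg rose 7.16-fold in IR+CF-2 against Con (log2 fold change 2.84 ± 0.56 SE, edgeR adjusted p = 0.0149). In IR against Con the log2 fold change was 2.33 ± 0.55, which missed the threshold of 0.05 (edgeR adjusted p = 0.0536), and passed it with the library number as a block (2.21, edgeR adjusted p = 0.0307). That block assumes a pairing of libraries that was not established, here and for the following genes. Fewer cells of a type and less RNA per cell cannot be told apart in bulk tissue, for this and every following gene.

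Ereg, which codes for epiregulin, moved in the same mice. It measured 5.54, 15.3 and 9.41 CPM in Con 2, 3 and 4, 72.1, 89.5 and 27.6 in IR 2, 3 and 4, and 191, 31.8 and 104 in IR+CF-2 1, 2 and 3. Again all irradiated mice exceeded all Con mice, and IR 4 and IR+CF-2 2 were the lowest irradiated ones. Ereg rose 10.8-fold in IR+CF-2 against Con (log2 fold change 3.43 ± 0.71, edgeR adjusted p = 0.0166). With the library number as a block, in a fit from which IR+CF-2 1 drops out, that log2 fold change was 2.37 and did not pass (edgeR adjusted p = 0.068). In IR against Con the log2 fold change of 2.65 ± 0.68 missed the threshold (edgeR adjusted p = 0.0653) and passed it with the block (2.64, edgeR adjusted p = 0.0395). Across the 9 libraries log2 CPM of Areg and Ereg had a Pearson correlation of 0.979, a description that includes the group differences both genes share.

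The start of Areg is printed because it holds a pair of motifs that stand out among the member promoters. The window is 250 bases before to 50 after the RefSeq start on GRCm38.p6, chr5:91139349-91139648, + strand, with both motifs in capitals.
Areg promoter: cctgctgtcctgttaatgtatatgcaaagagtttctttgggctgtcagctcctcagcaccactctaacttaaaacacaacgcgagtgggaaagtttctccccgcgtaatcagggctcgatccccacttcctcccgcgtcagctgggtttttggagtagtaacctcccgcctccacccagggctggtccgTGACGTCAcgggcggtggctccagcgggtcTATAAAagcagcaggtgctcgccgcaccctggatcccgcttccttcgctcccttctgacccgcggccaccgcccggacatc
The capitals mark TGACGTCA, the cyclic AMP response element that CREB proteins bind, beginning at position -61 from the start, and TATAAA, the TATA box, beginning at -31. TGACGTCA, searched after the sequence had been seen, occurred in 1.79% of 32851 mouse promoter windows of this length on either strand, and TATAAA in 13.6%. RefSeq windows were at hand for Areg, Tgfa, Egf, Btc, Epgn, Egfr and Erbb2. TGANTCA, the AP-1 motif, was in none of these member windows and in 7.81% of all windows, and TATAAA was also in that of Epgn. A match of letters describes the sequence and does not show binding.

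Hbegf and Btc code for heparin-binding EGF-like growth factor and betacellulin, ligands that bind both EGFR and ERBB4. Hbegf measured 21.2, 39.1 and 24.6 CPM in Con 2, 3 and 4, 29.9, 46.4 and 33.6 in IR 2, 3 and 4, and 59.6, 43.3 and 42.7 in IR+CF-2 1, 2 and 3. The IR+CF-2 mice stood above the Con mice and the IR mice overlapped with both, and the log2 fold change in IR+CF-2 against Con was 0.78 ± 0.26 (edgeR adjusted p = 0.0672). Btc measured 11.3, 12.4 and 9.95 CPM in Con, 16.1, 22.2 and 8.54 in IR, and 25.8, 11.1 and 21.03 in IR+CF-2, in the same order of libraries. IR 4 and IR+CF-2 2 had the lowest Btc of their groups and lay within or below the Con range, so no groups were separate, and the log2 fold change in IR+CF-2 against Con was 0.79 ± 0.37 (edgeR adjusted p = 0.168).

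Tgfa, the gene of transforming growth factor alpha, varied little between libraries. It measured 51.7, 55.4 and 57.0 CPM in Con 2, 3 and 4, 55.4, 66.3 and 68.0 in IR 2, 3 and 4, and 50.1, 44.7 and 50.4 in IR+CF-2 1, 2 and 3. The IR+CF-2 mice lay below both other groups without overlap in CPM, yet no comparison passed the test (log2 fold change −0.38 ± 0.11 against IR, edgeR adjusted p = 0.173, and −0.18 ± 0.11 against Con, edgeR adjusted p = 0.294). The gap to Con was narrow and depended on the scale, since in FPKM the groups overlapped (7.25 to 8.15 in IR+CF-2, 7.87 to 8.67 in Con).

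Egf itself and Epgn, the gene of epigen, were the lowest ligands per length. Egf measured 5.66, 6.39 and 4.81 CPM in Con, 2.56, 1.23 and 5.95 in IR, and 0.642, 3.28 and 1.85 in IR+CF-2, in the order of library numbers. The IR+CF-2 mice were below the Con mice, IR 4 lay within the Con range, and the log2 fold change in IR+CF-2 against Con was −1.54 ± 0.65 (edgeR adjusted p = 0.122). Epgn rested on few reads: 16, 4 and 2 counts in Con, 4, 10 and 4 in IR, and 28, 6 and 30 in IR+CF-2. All groups overlapped, and at this depth, where 3 counts correspond to 0.0646 to 0.0844 CPM, no difference was detectable (log2 fold change in IR+CF-2 against Con 1.39 ± 0.80, edgeR adjusted p = 0.244).

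**Figure D1:**
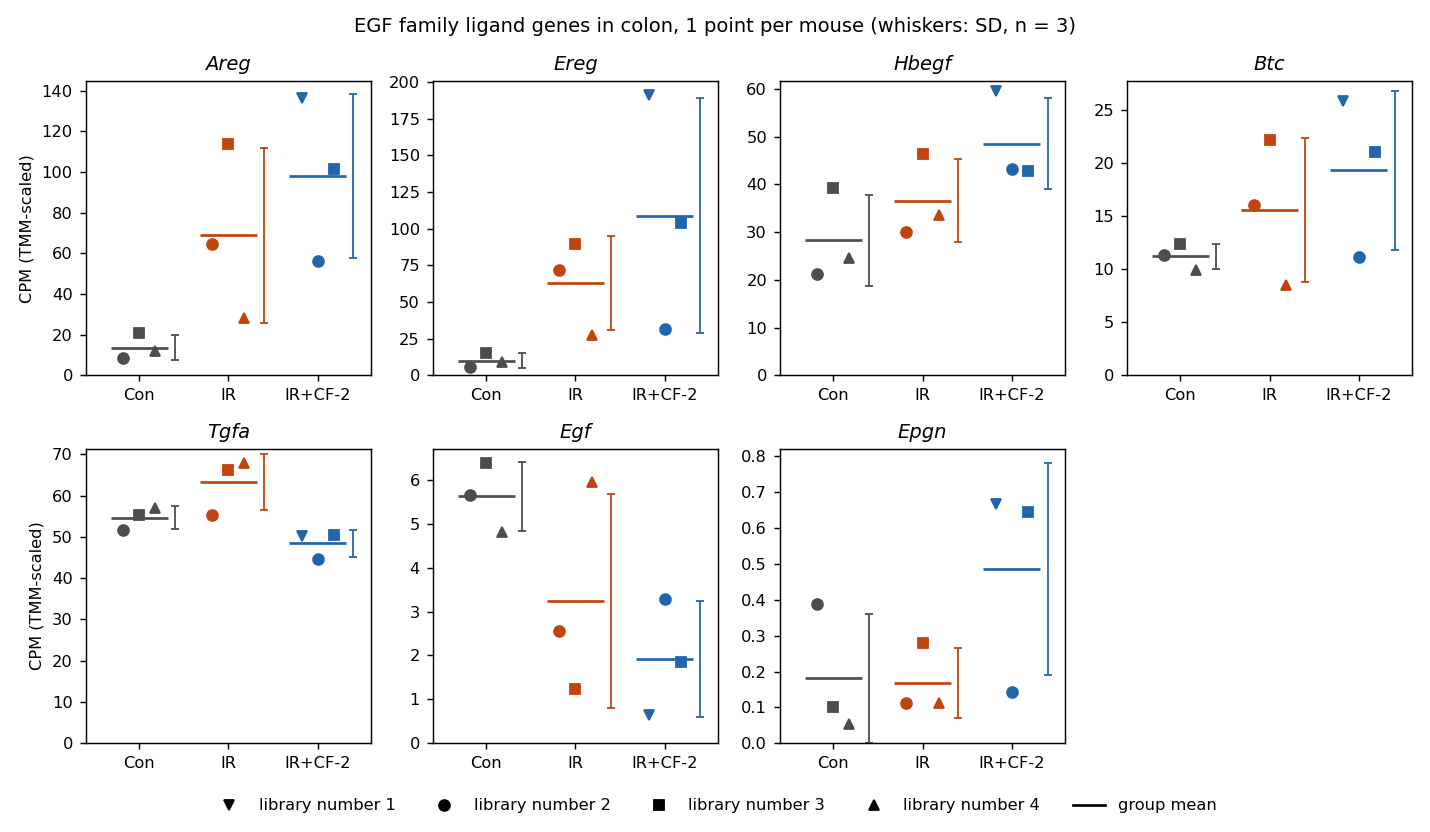
CPM (TMM-scaled, linear axis from 0, a scale per panel) of the 7 ligand genes in each group, 1 point per mouse with the marker giving the library number, the group mean as a line and the SD as whiskers. Areg and Ereg of all 6 irradiated mice lie above the 3 Con mice, while Tgfa spans 44.7 to 68.0 CPM over all libraries.

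Added up per length, the 7 ligand genes gave 24.4, 37.6 and 28.2 FPKM in Con 2, 3 and 4, 92.0, 138 and 46.0 in IR 2, 3 and 4, and 192, 76.5 and 137 in IR+CF-2 1, 2 and 3. The sum of every irradiated mouse exceeded that of every Con mouse. Areg made up 35.1 ± 6.26% of the summed FPKM in Con, 57.6 ± 10.2% of it in the IR group and 62.8 ± 1.83% in IR+CF-2 (SD, n = 3), and Ereg 7.55 ± 1.78%, 16.2 ± 3.16% and 18.3 ± 7.29%. The share of Tgfa went from 28.3 ± 6.50% in Con to 12.6 ± 7.37% in IR and 6.54 ± 2.69% in IR+CF-2, while its own CPM stayed between 44.7 and 68.0. Shares of a sum are tied to each other, so a larger Areg share lowers the others.

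**Figure D2:**
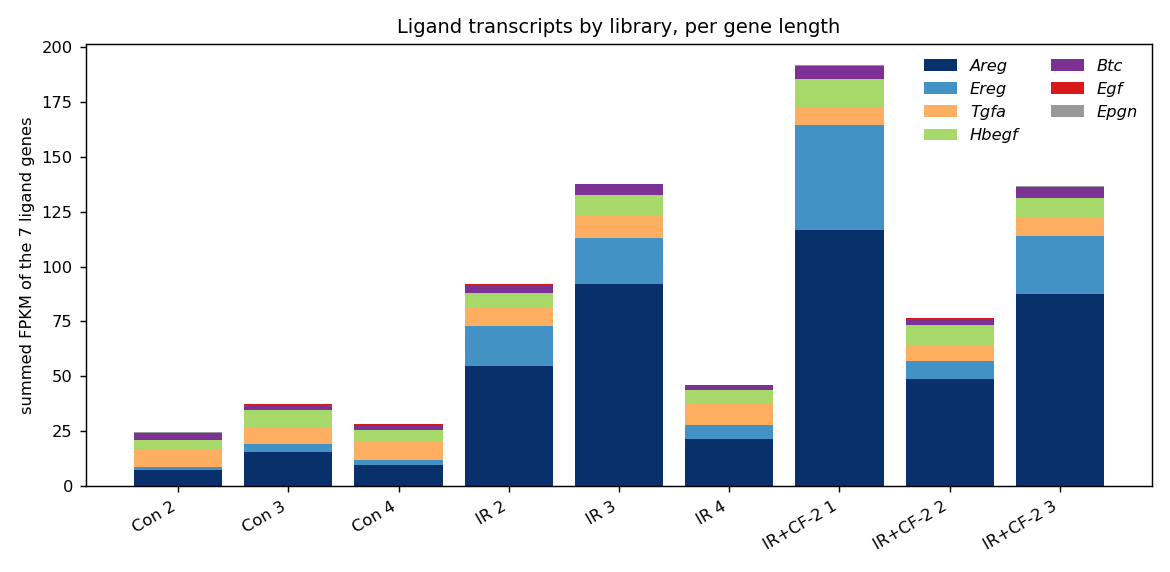
Summed FPKM of the 7 ligand genes in each of the 9 libraries, stacked by gene on a linear axis from 0. Areg is the largest segment in each irradiated library, and IR 4, at 46.0 FPKM, is the lowest of these.

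Among the receptors, Erbb2 and Erbb3 were lower with CF-2 and irradiation, and Egfr stood higher in irradiated colon without passing the test. Erbb3, whose protein recruits PI3K, measured 522, 579 and 665 CPM in Con 2, 3 and 4, 361, 396 and 612 in IR 2, 3 and 4, and 164, 292 and 199 in IR+CF-2 1, 2 and 3. All IR+CF-2 mice lay below all others, and IR 4 stood within the Con range. Erbb3 fell 2.70-fold in IR+CF-2 against Con (log2 fold change −1.43 ± 0.26, edgeR adjusted p = 0.0128). Against IR its log2 fold change was −1.06 ± 0.26 (edgeR adjusted p = 0.127), and −1.33 without IR+CF-2 2, which passed the threshold (edgeR adjusted p = 0.0337).

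Erbb2, the gene of the receptor that other family members prefer as a partner, measured 238, 297 and 289 CPM in Con, 165, 185 and 252 in IR, and 86.5, 156 and 111 in IR+CF-2, in the order of library numbers. The IR+CF-2 mice again lay below all others, and IR 4 within the Con range. Erbb2 fell 2.33-fold in IR+CF-2 against Con (log2 fold change −1.22 ± 0.24, edgeR adjusted p = 0.0148). Against IR its log2 fold change was −0.77 ± 0.24 (edgeR adjusted p = 0.19), and −1.03 without IR+CF-2 2 (edgeR adjusted p = 0.0424). Log2 CPM of Erbb2 and Erbb3 had a Pearson correlation of 0.988 over the 9 libraries, and that of Areg and Erbb2 one of −0.829, as a description.

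Egfr, the receptor of all 7 ligands, measured 54.5, 51.9 and 42.2 CPM in Con 2, 3 and 4, 83.1, 88.3 and 63.9 in IR 2, 3 and 4, and 85.0, 65.2 and 54.8 in IR+CF-2 1, 2 and 3. Every irradiated mouse stood above every Con mouse, by a narrow margin for IR+CF-2 3. The log2 fold change was 0.66 ± 0.19 in IR against Con (edgeR adjusted p = 0.0823, and 0.0369 with the library number as a block) and 0.46 ± 0.19 in IR+CF-2 against Con (edgeR adjusted p = 0.117). Erbb4, the remaining receptor of the family, had 0 counts in 7 libraries and 2 counts in each of IR 3 and IR 4, and was not tested.

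**Figure D3:**
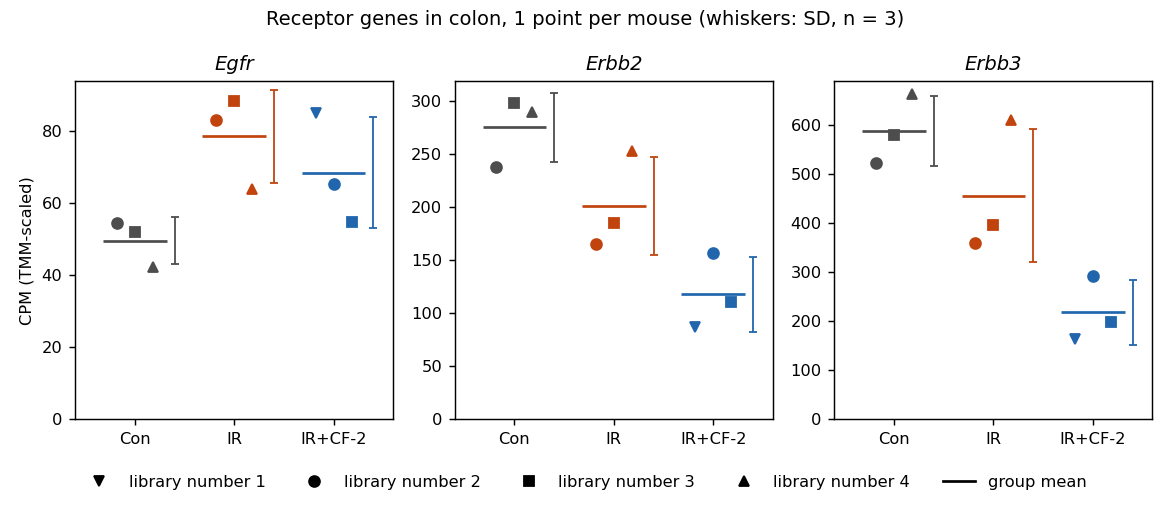
CPM (TMM-scaled, linear axis from 0, a scale per panel) of the 3 receptor genes, 1 point per mouse with the marker giving the library number, the group mean as a line and the SD as whiskers. Erbb2 and Erbb3 of the 3 IR+CF-2 mice lie below those of the other 6, and IR 4 lies with the Con mice.

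Counted over the family, IR+CF-2 against Con gave 2 members that rose (Areg, Ereg) and 2 that fell (Erbb2, Erbb3) of 10 tested, where 19.2% of all genes were called, 11.2% higher and 7.95% lower. At an unadjusted p under 0.05 there were 7 of 10, against 35.6% of all genes. In TMM-scaled CPM groups did not overlap for 4 members above Con (Areg, Ereg, Hbegf, Egfr), against 20.1% of all genes, and for 4 below (Tgfa, Egf, Erbb2, Erbb3), against 19.6%. Tgfa overlapped with Con in FPKM. The calls are near the threshold. Without Con 4 none of the 4 passed (edgeR adjusted p 0.0516 to 0.0681), where 685 of 19695 genes did. Without Con 2 Areg (0.0544) and Ereg (0.0596) did not pass, without Con 3 Erbb2 did not (0.0505), and without IR+CF-2 1 Ereg did not (0.0507). Without IR+CF-2 2 all 4 passed together with Egf and Btc, where 6721 of 19587 genes did. With the library number as a block Areg passed (2.24, edgeR adjusted p = 0.0395), and Ereg (0.068), Erbb2 (−0.94, 0.0815) and Erbb3 (−1.11, 0.0609) did not. In that fit 462 of 19174 genes passed.

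In IR against Con, 0 of 10 members passed edgeR's test, where 3.21% of all genes did. At an unadjusted p under 0.05 there were 3 (Areg, Ereg, Egfr), against 23.9% of all genes, and these 3 were also the members with separate groups, all above, against 22.6% of all genes above and 13.8% below. DESeq2 called 2 (Areg, Ereg), where it called 2110 of 19185 genes, and limma-voom 0, where it called 186 of 19174. With the library number as a block, a pairing that was not established, Areg, Ereg and Egfr passed, where 944 of 19174 genes did. Areg and Ereg also passed without IR 4 (edgeR adjusted p = 0.0236 and 0.0434), where 1191 of 19740 genes did. Without IR+CF-2 2 they passed too (0.0214 and 0.0145), where 3085 of 19587 genes did. IR 4 was the lowest irradiated mouse for both genes, so leaving it out widens the difference and gives no added support. Without both IR 4 and IR+CF-2 2, left out together after the data had been seen, 4717 of 19562 genes passed. Among them were 6 members, Areg, Ereg, Btc and Egfr higher and Erbb2 and Erbb3 lower.

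In IR+CF-2 against IR, which asks what CF-2 adds to irradiation, 0 of 10 members passed edgeR's test, where 0.302% of all genes did, and limma-voom also called 0. At an unadjusted p under 0.05 there were 3 (Tgfa, Erbb2, Erbb3), against 14.6% of all genes, and these 3 had separate groups, all below, against 10.3% of all genes below and 7.26% above. DESeq2 called Erbb3 (DESeq2 adjusted p = 0.00843), where it called 914 of 19813 genes. Without IR+CF-2 2 edgeR called Erbb2 and Erbb3, where 597 of 19587 genes passed. Without IR 4 as well it called the same members, where 480 of 19562 genes passed. IR+CF-2 2 had the highest Erbb2 and Erbb3 of its group, so leaving it out widens the difference. The 95% interval of the log2 fold change was −0.66 to 1.68 for Areg and −0.67 to 2.24 for Ereg, which leaves room for a rise or a fall. The median log2 fold change of the 10 members was 0.29, 0.06 and 0.62 in IR against Con, IR+CF-2 against IR and IR+CF-2 against Con, beside medians between 0.0062 and 0.024 over all tested genes.

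**Figure D4:**
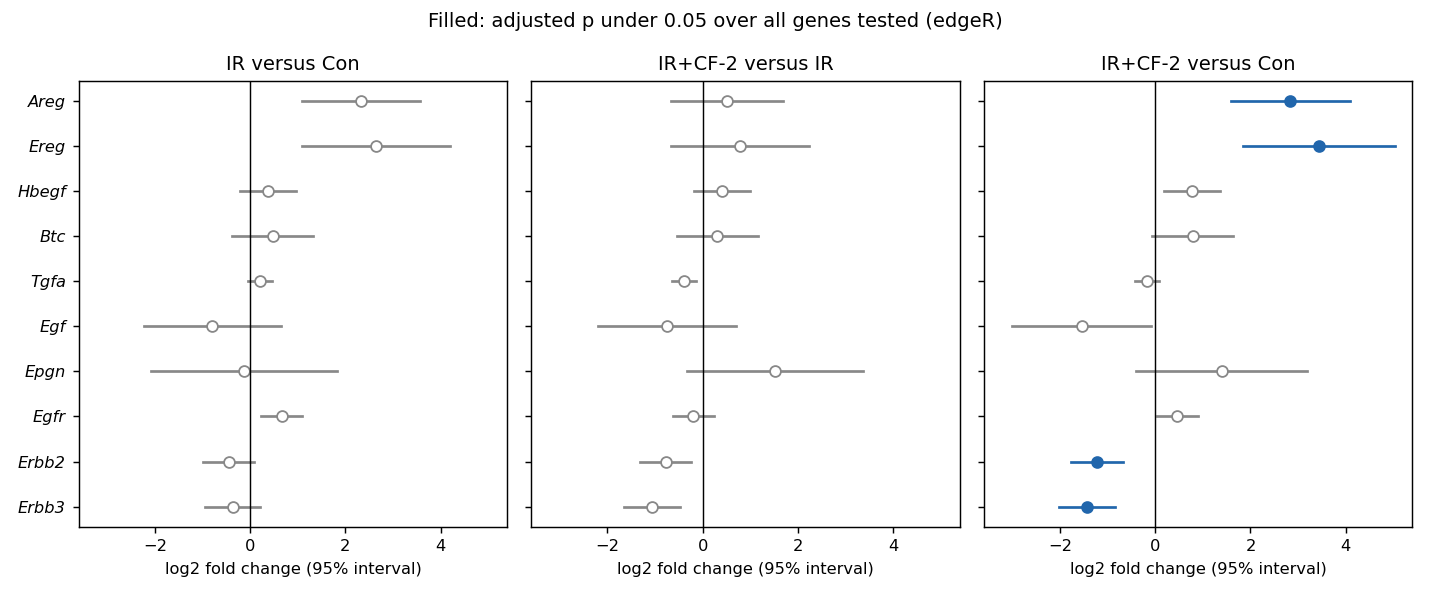
Log2 fold change with its 95% interval from edgeR for the 10 members in the 3 comparisons, filled where the adjusted p over all 19174 genes was under 0.05. Filled points are Areg, Ereg, Erbb2 and Erbb3 in IR+CF-2 against Con, and there are none in the other comparisons, in which Con and IR libraries are shared.

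Markers of other cells and of position along the colon differed between the same groups. Neutrophil markers summed to 0.807 to 1.64 CPM in Con, 1.08 to 6.33 in IR and 11.5 to 36.3 in IR+CF-2, and 6 of 6 rose in IR+CF-2 against Con, where 11.2% of all genes were called higher. Macrophage markers summed to 116 to 149, 134 to 174 and 175 to 327 CPM, with 6 of 8 higher, and fibroblast markers to 689 to 1435, 563 to 1484 and 1622 to 3303, with 1 of 8 higher past the test, beside the same 11.2% of all genes. Squamous markers summed to 3.60 to 4.55 CPM in Con, 5.39 to 18.2 in IR and 10.7 to 21.1 in IR+CF-2, and T and innate lymphoid cell markers to 85.9 to 114, 40.6 to 68.2 and 23.0 to 59.6. B and plasma cell markers summed to 221 to 353, 88.3 to 126 and 179 to 279 CPM, and those of smooth muscle, enteric neurons and glia, and endothelium overlapped between the groups of each comparison. Of the mast cell list, which summed to 77.7 to 99.8, 31.0 to 82.2 and 37.5 to 138 CPM, Kit made up most outside IR+CF-2 2, where Cma1 measured 90.4 CPM, and Mcpt4 and Fcer1a were at 0 in the other 8 libraries. The part of these cells in the member results was not tested.

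Epithelial markers, which stand for cells known to hold ERBB2 and ERBB3 in the colon, summed to 13956 to 15323 CPM in Con, 12278 to 15397 in IR and 11328 to 13772 in IR+CF-2. Of these 8 markers Krt18 rose and Epcam fell in IR+CF-2 against Con, where 11.2% of all genes were called higher and 7.95% lower. Per 1000 CPM of these markers, Erbb3 measured 37.4, 37.8 and 43.5 in Con and 12.4, 25.8 and 14.4 in IR+CF-2, and Erbb2 17.0, 19.4 and 18.9 against 6.53, 13.8 and 8.02. Areg on that scale was 0.615, 1.35 and 0.772 in Con, 5.25, 7.40 and 1.93 in IR, and 10.3, 4.97 and 7.38 in IR+CF-2. IR+CF-2 and Con stayed separate for all 3 genes (exact permutation test, 2-sided, p = 0.1, the smallest that 3 against 3 mice allow), while Erbb2 and Erbb3 overlapped between IR+CF-2 and IR. For some other members the scale changed which groups were separate. Tgfa overlapped between IR+CF-2 and Con (means 3.80 and 3.68) and stood above Con in IR. In IR+CF-2, Btc stood above Con and Hbegf above IR. The distal position gene Hoxa13 measured 43.2, 1.05 and 8.07 CPM in Con, 2.73, 1.71 and 0.834 in IR, and 57.3, 74.9 and 56.8 in IR+CF-2. The 5 distal genes summed to 65.8, 521 and 58.5 CPM in IR+CF-2 1, 2 and 3 and to 1.67 to 44.5 in the other groups. IR+CF-2 2 alone held Hoxb13 at 282 and Hoxd13 at 154 CPM. In IR+CF-2 1 and 3 the sum was mostly Hoxa13, with Hoxb13 at 8.49 and 1.21 CPM. There Hoxd13 measured 0 and 0.0430 CPM, and Hoxd12 was at 0. Hoxd11 measured 0 and 0.473 CPM there, below the 0.779 to 2.02 of Con and IR. The groups thus differed in Hoxa13 and Hoxb13, not in all 5 position markers. An effect of CF-2 and a difference in the part of the colon taken cannot be told apart. With log2 CPM of Hoxa13 as a covariate 0 members passed, and the log2 fold changes in IR+CF-2 against Con were 3.50 for Areg, 4.19 for Ereg, −0.98 for Erbb2 and −1.26 for Erbb3 (edgeR adjusted p 0.148 to 0.182). In that fit 6 of 19174 genes passed in IR+CF-2 against Con, where 3677 did without the covariate. Hoxa13 was higher in each IR+CF-2 library than in all others, so this fit cannot separate group from position.

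Beyond the 10 members, 61 genes in 6 lists cover the rest of the pathway, and 60 of them were tested. These lists, like those of cell markers above, were written with earlier results of these data known. Their shares beside those of all genes, here and in the following paragraphs, are therefore a description and no test of the pathway. In IR+CF-2 against Con 18 rose and 3 fell, 35% of those tested against 19.2% of all genes. In IR against Con 4 rose and 0 fell (6.67% against 3.21% of all genes, 2.37% higher and 0.845% lower), and in IR+CF-2 against IR 0 passed edgeR's test, while DESeq2 called 8. Single libraries weighed on these counts: the 21 in IR+CF-2 against Con became 2 without Con 4, 7 without Con 2, 10 without Con 3, 7 without IR+CF-2 1, 14 without IR+CF-2 3 and rose to 35 when IR+CF-2 2 was left out. The 4 in IR against Con became 0 without any 1 of Con 2, Con 3, Con 4, IR 2, IR 3 or IR+CF-2 3, 7 without IR 4 and 14 without IR+CF-2 2. With the library number as a block, a pairing that was not established, 8 passed in IR against Con, where 944 of 19174 genes did. In IR+CF-2 against Con, where IR+CF-2 1 drops out of that fit, 2 passed, where 462 of all genes did. With the Hoxa13 covariate 0 passed in both, where 48 and 6 of all genes did. The 0 in IR+CF-2 against IR became 3 without IR+CF-2 2, or 2 if IR+CF-2 3 was dropped instead. The neuregulins are ligands of ERBB3, ERBB4 or both, and of the 4 tested Nrg1 rose in IR+CF-2 against Con (log2 fold change 2.22 ± 0.57, edgeR adjusted p = 0.0295), where 11.2% of all genes were called higher. Nrg2 (−0.76 ± 0.39), Nrg3 (−0.82 ± 0.60) and Nrg4 (−0.47 ± 0.28) went the other way and did not pass. Nrg1 measured 8.92, 8.39 and 4.33 CPM in Con, 12.6, 9.13 and 4.14 in IR, and 50.8, 12.3 and 37.8 in IR+CF-2. IR+CF-2 2 lay just below IR 2, so those groups overlapped, and the fibroblast markers given above, of cells known to make neuregulin 1 in the gut, had higher sums in the same group with 1 of 8 past the test, and their part was not tested.

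Of 6 genes for ligand shedding, Rhbdf2, which codes for the iRhom2 partner of ADAM17, rose in both comparisons with Con. It measured 24.2, 23.1 and 23.2 CPM in Con, 44.8, 46.7 and 37.4 in IR, and 47.0, 33.3 and 39.9 in IR+CF-2. All irradiated mice were above all Con mice, with log2 fold changes of 0.87 ± 0.15 in IR (edgeR adjusted p = 0.0304) and 0.77 ± 0.15 in IR+CF-2 (0.0139). Frmd8, whose product stabilises that complex, rose in IR+CF-2 against Con (0.39 ± 0.11, edgeR adjusted p = 0.0372), and Adam17 itself did not pass (0.35 ± 0.14, edgeR adjusted p = 0.111). The shedding list thus had 2 of 6 called higher in IR+CF-2 against Con, where 11.2% of all genes were, and 1 of 6 in IR against Con, where 2.37% were. Of 9 receptor feedback inhibitors 1, Rnf41, the gene of the ubiquitin ligase NRDP1 that targets ERBB3, rose in IR+CF-2 against Con (0.45 ± 0.09, edgeR adjusted p = 0.0178). That share is close to the 11.2% of all genes called higher.

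The ERK feedback inhibitors and ERK-responsive genes held most of the other calls. Of 9 feedback inhibitors 5 rose in IR+CF-2 against Con: Dusp4 (log2 fold change 1.65 ± 0.29), Spry4 (1.67 ± 0.30), Dusp6 (1.11 ± 0.25), Spred3 (1.15 ± 0.28) and Spry2 (0.62 ± 0.16, named after its value was seen), with edgeR adjusted p of 0.0117 to 0.0307, where 11.2% of all genes were called higher. Dusp6, whose phosphatase acts on ERK, measured 58.3, 76.7 and 59.4 CPM in Con, 115, 143 and 80.5 in IR, and 183, 127 and 110 in IR+CF-2, and all irradiated mice stood above all Con mice. Dusp4 also rose in IR against Con (1.68 ± 0.29, edgeR adjusted p = 0.0312). Of 16 ERK-responsive genes 9 rose in IR+CF-2 against Con, beside the same 11.2% of all genes, with Etv4 (2.86 ± 0.51), Junb (0.85 ± 0.15), Egr1 (1.58 ± 0.28) and Ccnd1 (1.94 ± 0.37) at the smallest edgeR adjusted p (0.0117 to 0.0136). Myc (1.37 ± 0.27, edgeR adjusted p = 0.0401) and Ccnd1 (1.84 ± 0.36, edgeR adjusted p = 0.0405) rose in IR against Con.

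Egr1 is an immediate early gene and Etv4 codes for an ETS factor, and neither passed in IR against Con (edgeR adjusted p = 0.739 and 0.0661). Egr1 measured 29.0, 44.1 and 24.9 CPM in Con, 40.4, 43.0 and 26.9 in IR, and 111, 114 and 68.3 in IR+CF-2, so the IR mice lay in the Con range. Etv4 measured 5.92, 3.73 and 2.26 CPM in Con, 19.2, 19.5 and 5.48 in IR, and 28.3, 33.8 and 24.3 in IR+CF-2, with IR 4 again among the Con values. In the RAS-ERK core 3 of 16 genes fell in IR+CF-2 against Con, the kinase genes Araf (−0.45 ± 0.09) and Mapk3 (−0.70 ± 0.16) and the exchange factor gene Sos2 (−0.41 ± 0.10), at edgeR adjusted p of 0.015 to 0.0244, while 7.95% of all genes were called lower. The fold changes of the core were positive for 8 genes and negative for 8, and its share of calls was close to the 19.2% of all genes. Many of these genes answer to other signals as well, and the macrophage, neutrophil and fibroblast marker sums were higher in the same mice. What each contributes was not tested.

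**Figure D5:**
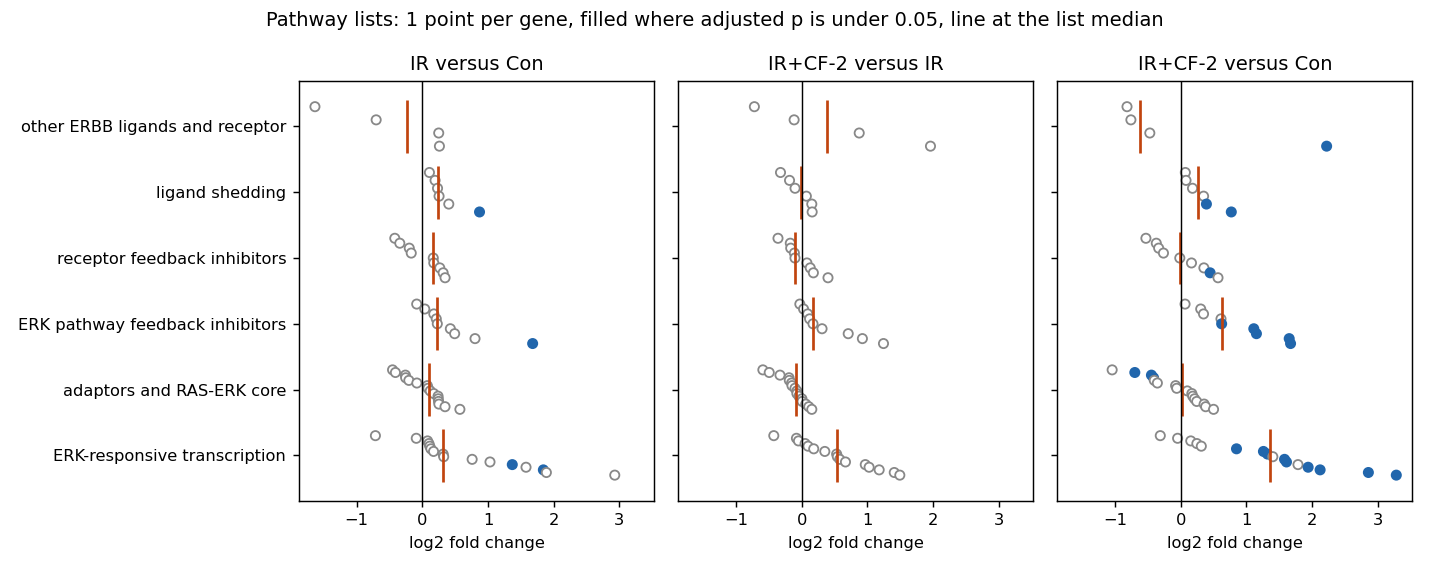
Log2 fold change of the 60 tested pathway genes in 6 lists for the 3 comparisons, 1 point per gene, filled where the edgeR adjusted p was under 0.05, with the list median as a line. Medians of the ERK-responsive list were 0.32, 0.54 and 1.36, and those of the RAS-ERK core 0.10, −0.09 and 0.02.

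The genes most like each member were those with the highest Pearson correlation of log2 CPM over the 9 libraries among about 11238 genes of at least 5 CPM on average. For Areg these were Epha2 (0.991), Ccdc137 (0.986) and Umps (0.986), and for Ereg Nol8 (0.993), Tfdp1 (0.993) and Ddx21 (0.991). For Erbb2 they were Naip6 (0.996), Sult1d1 (0.994) and Adck5 (0.993), and for Erbb3 Rbm5 (0.996), Tbc1d22a (0.995) and Maoa (0.992). Egfr was closest to Aebp2 (0.965), Rela (0.948) and Uspl1 (0.939). Hbegf had the lowest best match of the family, Atp23 (0.933), ahead of Bcl3 (0.928) and Micall2 (0.926), Tgfa was closest to Stx3, Oard1 and Appl1 (0.972 to 0.974), and Btc to Hmces, Paf1 and Ly6a (0.956 to 0.957). Egf was closest to Wnk4 (0.991), Arhgef28 and Tppp (0.977 both), and Epgn to Fam160a1 (0.964), Acot7 and Apba3 (0.924 both). These values share the group differences, depth and tissue makeup of the same 9 libraries.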

How the data were processed

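Poly(A) RNA from mouse colon tissue was sequenced as paired-end libraries, 9 in all, 3 mice per group. HISAT2, featureCounts and DESeq2, and the builds GRCm38 and mm10, are named in the submitters' processing notes. Versions, strandedness and the treatment of reads shared by genes were not given in the sources used here. Raw counts and FPKM per gene and library stand side by side in 1 table deposited by the authors, per the file headers. For each of the 10 members the FPKM implies a gene length equal to its summed exons in GENCODE M21.

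Counts were fitted with edgeR 4.0.16 (R 4.3.3): filterByExpr, TMM scaling, and its robust quasi-likelihood test, with group as the only term and all 9 libraries fitted together. A gene passed at a 2-sided p under 0.05 after Benjamini-Hochberg adjustment over 19174 genes. The biological coefficient of variation was 30.6%. Standard errors were derived from the fold change and its F statistic. FPKM was used only to order levels and sum ligands. In simulated data 200 genes were changed in 1 group, and no outlying libraries or differences in tissue makeup were added. There the pipeline recovered 24 to 28% of genes changed 2-fold and 59 to 74% of those changed 4-fold. Of its calls there 4.17 to 6.48% were false. In the real data 3677 genes passed in IR+CF-2 against Con, so these shares need not hold for the real libraries. A member that did not pass may still differ. Floors of 3 counts cover counting error only, and among genes over 20 counts no pair of libraries had equal counts for more than 0.789%.

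The members and gene lists were chosen with earlier results of these data known. Named were all members, up to 4 genes per pathway list with the smallest adjusted p past the test, and the 3 genes most like each member, leaving out predicted genes, clone names and pseudogenes. Same-numbered Con and IR libraries had r of 0.354, 0.142 and 0.112 between their deviations from the group means. Con and IR libraries of different number had r from −0.223 to 0.0789, yet IR 3 and IR+CF-2 1, also of different number, had 0.345. The labels number the replicates and do not state a pairing, so pairing was not established, and the block is an alternative only. IR+CF-2 shares only numbers 2 and 3 with Con and IR (r from 0.0515 to 0.262), and IR+CF-2 1 drops out of a blocked fit.

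Alternatives were scaling by RLE or upper quartile, dropping or tightening the filter, DESeq2 1.42.0, limma-voom (limma 3.58.1), fits restricted to the groups compared, the replicate block, adjusted p under 0.01, a Hoxa13 covariate and each library left out. Added after seeing the data were robust = FALSE and leaving out IR 4 and IR+CF-2 2 together.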

Additional observations from a re-analysis of the deposited data

How the results depend on the processing

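In IR against Con the count of members past the test, 0, became 2 with DESeq2, 3 with the compared groups alone, 3 with the replicate block, 6 without IR 4 and IR+CF-2 2, and 0 to 2 with each library left out. In IR+CF-2 against IR it went from 0 to 1 with DESeq2, 2 without IR 4 and IR+CF-2 2, and 0 to 2 with a library left out. In IR+CF-2 against Con it went from 4 to 1 with the replicate block, in which Areg remained, 3 with no filter (Ereg at an edgeR adjusted p of 0.0569), 6 with DESeq2, which added Hbegf and Egf, 0 at an adjusted p under 0.01, 0 with the Hoxa13 covariate and 0 to 6 with a library left out. Of the pathway genes, the 4 called in IR against Con became 2 with RLE, 2 with upper quartile scaling, 11 with DESeq2, 1 with limma-voom, 9 with the compared groups alone, 8 with the replicate block, 0 at 0.01, 0 with Hoxa13, 22 without IR 4 and IR+CF-2 2, and 0 to 14 with a library left out. In IR+CF-2 against IR the 0 became 8 with DESeq2, 3 without the 2 libraries, and 0 to 3 with a library left out, and in IR+CF-2 against Con the 21 became 2 with the replicate block, 0 at 0.01, 0 with Hoxa13, 37 without the 2 libraries and 2 to 35 with a library left out. Signs turned only in comparisons in which the member did not pass the main test. The log2 fold change of Epgn in IR against Con (−0.12) became 0.17 with limma-voom, 0.83 with Hoxa13, 1.07 without Con 2, 0.095 without IR 2, 0.10 without IR 4 (−0.74 to 1.07 with any library left out) and 0.094 without IR 4 and IR+CF-2 2, and in IR+CF-2 against IR it became −0.21 with Hoxa13. In IR+CF-2 against IR the replicate block gave −0.27 for Ereg, 0.058 for Egf and −0.15 for Btc, and Egf was 0.019 without IR 4 (−1.37 to 0.019 with any library left out). The other fold changes of the members kept their sign in every alternative run. Apart from the block and groups with fewer libraries, which change how many are compared, the cause was not tested. Over all genes the 454 higher and 162 lower calls in IR against Con became 173 and 104 with RLE and 166 and 136 with upper quartile scaling. These 616 became 2110 with DESeq2, 2307 with the compared groups alone and 944 with the replicate block. They became 4717 without the 2 libraries and 1 to 3085 with a library left out. In the same runs the 58 in IR+CF-2 against IR became 914, 6, 6, 480 and 5 to 597. The 3677 in IR+CF-2 against Con became 5024, 2497, 462, 7838 and 685 to 6721. Epgn rests on 2 to 30 counts per library.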
